A study of Mus musculus with 6 samples.

Results

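Neutrophil granule genes encode the antimicrobial proteins and enzymes that neutrophils store in granules and release at sites of infection. The expression of 10 such genes, of 44556 in the count tables, was examined in the parietal bone of newborn mice. Of these, 7 genes are transcribed late in neutrophil development (S100a8, S100a9, Ltf, Camp, Ngp, Lcn2 and Mmp8) and 3 early (Mpo, Elane and Prtn3). The 10 genes were chosen because neutrophil genes had been lower in the libraries labelled OsxCre;Stat3fl/fl, so their differences between genotypes are a description and carry no test.

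The data were polyA RNA-seq counts from whole parietal bone, a flat bone of the skull vault, of C57BL/6 newborns. There were 3 libraries labelled OsxCre and 3 labelled OsxCre;Stat3fl/fl, from littermates. Both groups carried OsxCre, a transgene in which the promoter of Osx, a transcription factor of osteoblast precursors, drives Cre recombinase. In the second group the Stat3 alleles were floxed, that is, flanked by sites at which Cre cuts. Deletion was therefore aimed at cells of the osteoblast lineage and not at neutrophils, and the labels do not say which libraries came from 1 litter or whether animals were pooled. The p-values given here accordingly measure the spread between these libraries, which may be technical.

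Neutrophils are made in bone marrow from granulocyte-monocyte progenitors, and their granules are filled in order. Promyelocytes transcribe Mpo, Elane and Prtn3, whose products enter the azurophil granules. Myelocytes and later cells switch these genes off and transcribe the proteins of the specific and gelatinase granules, such as lactoferrin, cathelicidin and neutrophil collagenase, and then abundant cytosolic proteins such as S100a8 and S100a9. The C/EBP, PU.1, RUNX and GFI1 transcription factors drive this program, and STAT3 acts downstream of the receptor for granulocyte colony-stimulating factor in these cells. In bulk RNA, fewer cells of a type and less RNA per cell cannot be told apart.

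The libraries held 8193651 to 12080044 counted reads, and 15600 genes passed the filter on low counts. Values are given as CPM, the reads of a gene relative to the total of its library, scaled by the trimmed mean of M-values (TMM), whose factors ran from 0.932 to 1.04. A count of 3 corresponded to 0.248 to 0.366 CPM before TMM scaling. Stat3 was not lower in the libraries labelled OsxCre;Stat3fl/fl, with 1575, 1357 and 1685 counts in OsxCre and 1273, 1262 and 1328 in the other group (log2 fold change 0.12, SE 0.07, adjusted p = 0.442, edgeR's quasi-likelihood test with Benjamini-Hochberg adjustment over all tested genes). In TMM-scaled CPM Stat3 was at 149, 134 and 141 in OsxCre and at 152, 154 and 155 in the other group. The groups thus did not overlap, with the second higher, as for 10.8% of all tested genes. Both measures are over the whole gene, in a tissue that holds many cells outside the targeted lineage. The study describes male newborns, whereas Xist had 7333 to 12392 counts and the Y-linked Ddx3y 0 counts in every library. The genotype is therefore given as labelled throughout.

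Several of the genes lie close together in the genome (GRCm38.p6, RefSeq coordinates). S100a8 (chr3:90669071-90670034) and S100a9 (chr3:90692630-90695721) are 22.6 kb apart. Prtn3 (chr10:79879667-79883174) and Elane (chr10:79886312-79888216) are separated by 3137 bp. Camp (chr9:109847377-109849456), Ngp (chr9:110419808-110423012) and Ltf (chr9:111019292-111042766) follow each other on chromosome 9 with gaps of 570 kb and 596 kb. Mmp8 (chr9:7558429-7568486) lies elsewhere on that chromosome. Lcn2 (chr2:32384637-32387739) and Mpo (chr11:87793784-87804412) stand alone.

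The 250 bases before the transcription start are shown for 4 of the genes, because they set a late gene that was lower beside the late gene that was higher, and beside the neighbouring early genes Elane and Prtn3. All are from RefSeq and GRCm38.p6, read 5′ to 3′ on the strand of the gene. Capitals mark matches to a C/EBP motif (TTGCNNAA) or a PU.1 motif (GAGGAAG) on either strand. The regions are chr9:110419558-110419807 on the plus strand for Ngp, chr2:32387740-32387989 on the minus strand for Lcn2, chr10:79886062-79886311 on the plus strand for Elane and chr10:79879417-79879666 on the plus strand for Prtn3.
Ngp: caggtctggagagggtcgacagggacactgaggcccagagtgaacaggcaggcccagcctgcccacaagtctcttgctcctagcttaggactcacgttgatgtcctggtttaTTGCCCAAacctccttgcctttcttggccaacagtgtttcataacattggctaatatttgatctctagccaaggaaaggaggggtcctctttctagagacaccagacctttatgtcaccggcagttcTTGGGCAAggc
Lcn2: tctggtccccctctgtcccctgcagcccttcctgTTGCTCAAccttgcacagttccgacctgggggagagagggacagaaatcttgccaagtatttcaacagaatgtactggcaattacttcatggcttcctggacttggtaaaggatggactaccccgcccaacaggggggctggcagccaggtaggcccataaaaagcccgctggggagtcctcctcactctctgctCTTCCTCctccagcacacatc
Elane: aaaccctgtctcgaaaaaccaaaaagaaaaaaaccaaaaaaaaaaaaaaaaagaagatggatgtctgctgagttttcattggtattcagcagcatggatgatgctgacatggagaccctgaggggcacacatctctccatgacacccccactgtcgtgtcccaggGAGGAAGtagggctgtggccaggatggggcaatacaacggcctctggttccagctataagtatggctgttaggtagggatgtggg
Prtn3: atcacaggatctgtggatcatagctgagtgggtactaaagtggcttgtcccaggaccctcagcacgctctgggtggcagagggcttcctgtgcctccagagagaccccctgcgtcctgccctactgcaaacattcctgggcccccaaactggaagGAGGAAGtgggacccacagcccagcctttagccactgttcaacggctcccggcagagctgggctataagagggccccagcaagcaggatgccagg

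The C/EBP letters occurred in 5 of the 10 windows (S100a9, Ltf, Ngp, Lcn2 and Mmp8), all from late genes, and in 9.56% of 32851 promoter windows of the same length. The PU.1 letters occurred in 6 of 10 (S100a8, Lcn2, Mmp8, Mpo, Elane and Prtn3), among them all 3 early genes, and in 10.6% of all windows. A RUNX motif (TGTGGT) occurred in 1 of 10, that of S100a9, against 14.0% of all windows. A STAT motif (TTCNNNGAA) was found in 0 of 10 windows and in 7.02% of all windows. No motif contains another. A match is a description of the sequence and not a binding site, and the lack of a match says only that these letters are not in these windows. Ngp, with lower mean CPM, and Lcn2, with higher CPM in the libraries labelled OsxCre;Stat3fl/fl, both held the C/EBP letters.

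Of the 7 late genes, 6 were more than 1.5-fold lower in the libraries labelled OsxCre;Stat3fl/fl and 1, Lcn2, was more than 1.5-fold higher. Over all tested genes, 3.71% were more than 1.5-fold lower and 5.12% more than 1.5-fold higher. The groups did not overlap for 5 of the 7 on the lower side (12.2% of all tested genes) and for 1 on the higher side (10.8%). The median log2 fold change of the 7 was -1.17, against -0.00 over all tested genes. Since the genes were chosen on this contrast, nothing is read from these shares. Without OsxCre replicate 3, the count of late genes more than 1.5-fold lower was 5, Ngp being the one lost.

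**Figure D1:**
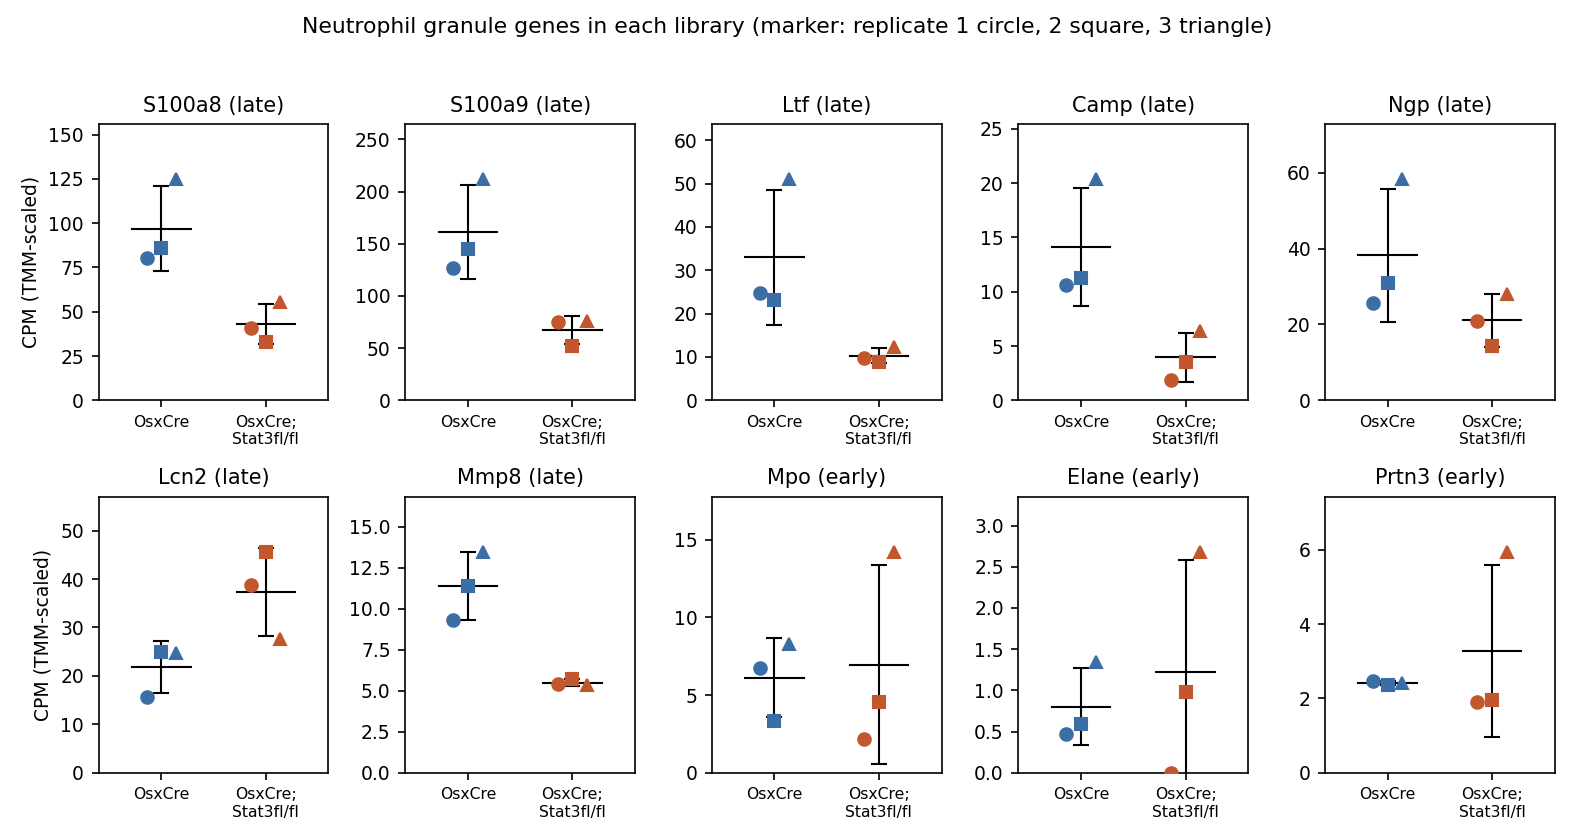
TMM-scaled CPM (vertical axes, each starting at 0 with its own scale) of the 10 granule genes in each library, by genotype. Points are libraries (circle, square and triangle for replicates 1, 2 and 3), horizontal bars the mean and error bars the SD (n = 3). S100a8, S100a9, Ltf, Camp and Mmp8 were separated with OsxCre above, Lcn2 was separated with OsxCre below, and Ngp, Mpo, Elane and Prtn3 overlapped.

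S100a8 and S100a9 encode the subunits of calprotectin, which binds metal ions and is abundant in the neutrophil cytosol. S100a9 was at 127, 145 and 212 CPM in OsxCre and at 74.7, 52.3 and 75.8 CPM in the libraries labelled OsxCre;Stat3fl/fl (161 ± 44.6 against 67.6 ± 13.2, SD, n = 3 each), 2.38-fold lower (log2 fold change -1.25, SE 0.21). S100a8 was at 80.3, 85.9 and 125 CPM against 40.8, 32.9 and 55.3 CPM (97.0 ± 24.2 against 43.0 ± 11.3), 2.26-fold lower (log2 fold change -1.17, SE 0.22). For both genes OsxCre replicate 3 was highest, and every library labelled OsxCre;Stat3fl/fl lay below every OsxCre library. There were 58.9 to 63.2 counts of S100a8 per 100 of S100a9 in OsxCre and 54.6 to 72.9 in the other group, so the proportion of the subunits overlapped between genotypes.

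Ltf, Camp and Ngp encode proteins of the specific granules. Ltf, lactoferrin, which binds iron, was at 24.8, 23.1 and 51.0 CPM in OsxCre and 9.70, 8.93 and 12.2 CPM in the libraries labelled OsxCre;Stat3fl/fl (33.0 ± 15.6 against 10.3 ± 1.74, log2 fold change -1.68, SE 0.32). Camp, the precursor of the cathelicidin antimicrobial peptide, was at 10.6, 11.3 and 20.3 CPM against 1.92, 3.55 and 6.41 CPM (14.1 ± 5.43 against 3.96 ± 2.28, log2 fold change -1.83, SE 0.43). These were the 2 largest differences among the 9 granule genes that could be fitted, and in neither did the groups overlap. For Ltf, OsxCre replicate 3 stood well above the other OsxCre libraries, and without it the log2 fold change was -1.22.

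Ngp, neutrophilic granule protein, differed less. It was at 25.7, 30.8 and 58.3 CPM in OsxCre and at 20.8, 14.3 and 28.1 CPM in the libraries labelled OsxCre;Stat3fl/fl (38.3 ± 17.5 against 21.1 ± 6.90, log2 fold change -0.86, SE 0.34). Its groups overlapped, since OsxCre;Stat3fl/fl replicate 3 lay above OsxCre replicate 1. Without OsxCre replicate 3 the log2 fold change of Ngp was -0.42.

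Mmp8, neutrophil collagenase, which cleaves fibrillar collagens, was the tightest of the late genes within the libraries labelled OsxCre;Stat3fl/fl. It was at 9.30, 11.4 and 13.5 CPM in OsxCre and at 5.39, 5.75 and 5.36 CPM in the other group (11.4 ± 2.09 against 5.50 ± 0.215, log2 fold change -1.05, SE 0.19). The groups did not overlap.

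Lcn2 went the other way. It encodes lipocalin 2, a specific granule protein that captures bacterial iron carriers, and is also made by many other cells in inflammation. Lcn2 was at 15.6, 25.0 and 24.7 CPM in OsxCre and at 38.8, 45.6 and 27.5 CPM in the libraries labelled OsxCre;Stat3fl/fl (21.8 ± 5.36 against 37.3 ± 9.14), 1.71-fold higher (log2 fold change 0.78, SE 0.23). The groups did not overlap, and the gap between the nearest libraries was small. Set against S100a9 within each library, there were 12.2, 17.3 and 11.7 Lcn2 counts per 100 S100a9 counts in OsxCre and 51.9, 87.1 and 36.3 in the other group.

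The other late genes kept closer to S100a9. Per 100 S100a9 counts there were 16.0 to 24.1 Ltf counts in OsxCre and 13.0 to 17.1 in the libraries labelled OsxCre;Stat3fl/fl. Mmp8 gave 6.37 to 7.85 against 7.08 to 11.0. The corresponding ranges for Ngp were 20.2 to 27.5 against 27.3 to 37.1. All of these ranges overlapped between the groups. Camp gave 7.78 to 9.61 against 2.56 to 8.46, with OsxCre;Stat3fl/fl replicate 1, where Camp had 16 counts, well below the rest.

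The early genes did not separate the genotypes. Mpo, myeloperoxidase, which makes hypochlorous acid, was at 6.74, 3.36 and 8.29 CPM in OsxCre and at 2.16, 4.52 and 14.2 CPM in the libraries labelled OsxCre;Stat3fl/fl (6.13 ± 2.52 against 6.97 ± 6.40, log2 fold change 0.18, SE 0.63). Prtn3, proteinase 3, a serine protease, was at 2.47, 2.37 and 2.43 CPM against 1.92, 1.96 and 5.95 CPM (2.42 ± 0.0479 against 3.27 ± 2.32, log2 fold change 0.44, SE 0.45). OsxCre;Stat3fl/fl replicate 3 was above, and replicates 1 and 2 were inside or below, the OsxCre range for both genes. Elane, neutrophil elastase, had 5, 6 and 16 counts in OsxCre and 0, 8 and 23 in the other group, and was the only one of the 10 genes below the filter on low counts. It is described by its counts only. The 0 in replicate 1 allows up to 0.366 CPM before TMM scaling at a floor of 3 counts, which covers counting error only.

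Summed over the 3 early genes, the level was 9.68, 6.33 and 12.1 CPM in OsxCre and 4.07, 7.46 and 22.9 CPM in the libraries labelled OsxCre;Stat3fl/fl. The lowest and the highest of the 6 libraries were thus both in the second group, and these sums rested on 34 to 196 counts. The log2 ratio of the mean sums was 0.29, and without OsxCre;Stat3fl/fl replicate 3 it was -0.70, so the direction for the early genes rested on 1 library. The same held for the fitted values of Mpo and Prtn3, which without that library were -0.88 and -0.32.

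By contrast, the 6 late genes other than Lcn2, a sum chosen after the values were seen, gave 278, 307 and 480 CPM in OsxCre and 153, 118 and 183 CPM in the libraries labelled OsxCre;Stat3fl/fl. The log2 ratio of the means was -1.23, and it lay between -1.39 and -0.95 when any 1 library was left out. For all 7 late genes the sums were 293, 332 and 504 CPM against 192, 163 and 211 CPM. The groups did not overlap for either sum.

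Early counts per 100 late counts (without Lcn2) were 3.48, 2.06 and 2.51 in OsxCre and 2.65, 6.33 and 12.5 in the libraries labelled OsxCre;Stat3fl/fl. Replicates 2 and 3 of the second group were above every OsxCre library, while replicate 1 was inside the OsxCre range. Mpo per 100 S100a9 counts gave 5.30, 2.32 and 3.91 against 2.88, 8.64 and 18.8, again with replicates 2 and 3 of the second group above every OsxCre library. These ratios do not depend on how libraries are scaled to each other.

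**Figure D2:**
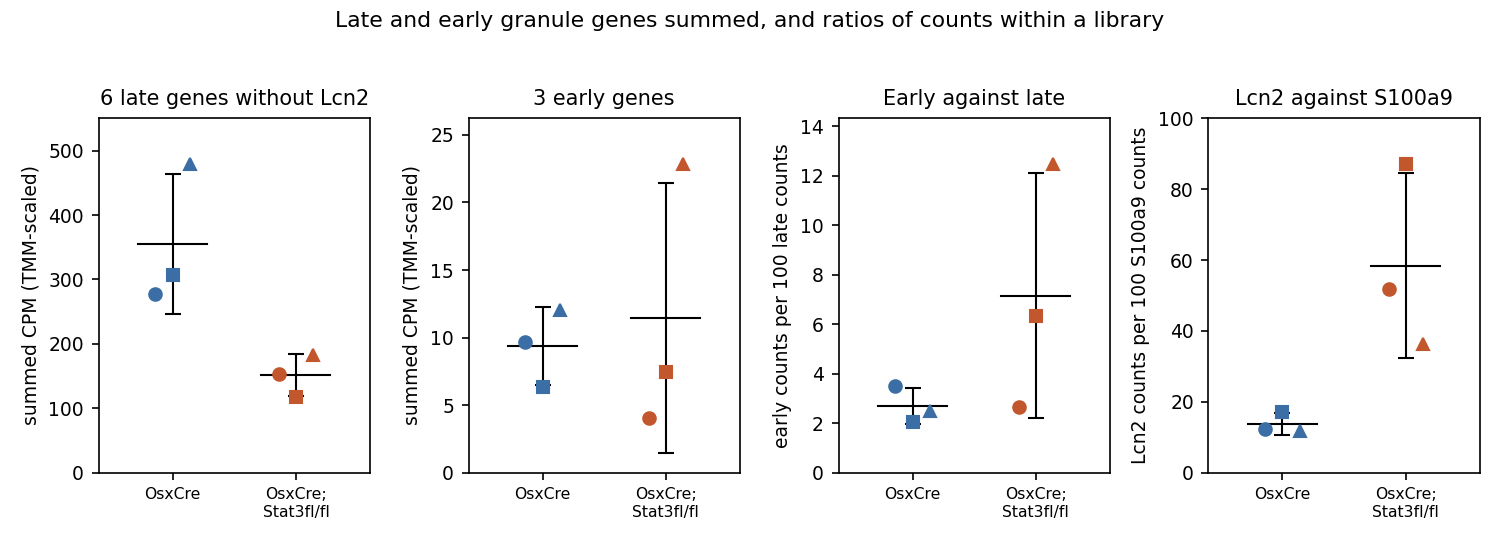
From left to right, the summed TMM-scaled CPM of the 6 late genes without Lcn2, the summed CPM of the 3 early genes, early counts per 100 late counts, and Lcn2 counts per 100 S100a9 counts, by genotype. Points are libraries (circle, square and triangle for replicates 1, 2 and 3) with the mean and SD (n = 3). The late sums and the Lcn2 ratios were separated by genotype, and the early sums (6.33 to 12.1 against 4.07 to 22.9 CPM) overlapped. The late sum was chosen after the values were seen. Lcn2 and S100a9 were each separated on their own, in opposite directions, so the separation of their ratio adds nothing to that.

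Within a genotype the late genes also ranked the libraries alike. OsxCre replicate 3 was the highest OsxCre library for 6 of the 6 late genes without Lcn2, and OsxCre;Stat3fl/fl replicate 3 the highest of its group for 5 of 6. OsxCre;Stat3fl/fl replicate 3 was also highest of its group for 3 of the 3 early genes and replicate 1 lowest for 3 of 3. Over the 6 libraries, Pearson's r of log2 CPM between pairs of the 6 late genes was 0.78 to 0.98 (15 pairs, median 0.92). It was 0.80 to 0.90 between pairs of early genes (3 pairs), -0.25 to 0.49 between late and early genes (18 pairs) and -0.76 to -0.54 between Lcn2 and the other late genes (6 pairs). All pairs share the same 6 libraries and their genotypes, depths and scaling, so these values are descriptions.

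Together the 10 genes took 0.0308% to 0.0511% of all counts in OsxCre and 0.0159% to 0.0234% in the libraries labelled OsxCre;Stat3fl/fl. S100a8 and S100a9 made up 65.2% to 68.4% of that in OsxCre and 49.9% to 58.9% in the other group. That total includes Lcn2, which was higher in the second group, so the shares do not rank the falls of the other late genes. The log2 fold changes of S100a8 (-1.17) and S100a9 (-1.25) were smaller in size than those of Camp (-1.83) and Ltf (-1.68). They were larger in size than those of Mmp8 (-1.05) and Ngp (-0.86). Levels between genes were compared per kilobase of the exon union, as CPM per kb. In OsxCre the order was S100a9 (309 ± 85.5), S100a8 (247 ± 61.7), Ngp (31.5 ± 14.4), Camp (23.4 ± 9.04), Ltf (12.0 ± 5.70), Lcn2 (9.45 ± 2.33), Mmp8 (4.64 ± 0.851), Mpo (1.79 ± 0.736), Prtn3 (1.40 ± 0.0276) and Elane (0.872 ± 0.510), each in CPM per kb with SD and n = 3. Neighbours in this order overlapped in their OsxCre values except S100a8 with Ngp, Lcn2 with Mmp8 and Mmp8 with Mpo. In the libraries labelled OsxCre;Stat3fl/fl, Lcn2 (16.2 ± 3.97 CPM per kb) moved to the 4th place, above Camp (6.59 ± 3.79) and Ltf (3.75 ± 0.633), and the other genes kept their order. With the longest transcript as the length, 6 of the 10 genes had the same place in OsxCre.

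Beyond the 10 genes, 61 other genes of neutrophils and their production were listed by role, and 45 of them passed the filter. By edgeR's quasi-likelihood test with Benjamini-Hochberg adjustment over all tested genes, 2 were lower and 1 was higher in the libraries labelled OsxCre;Stat3fl/fl, and 42 did not pass (0.481% of all tested genes were called lower and 0.776% higher). Fitted differences were negative for 29 and positive for 16, with a median log2 fold change of -0.19. At an unadjusted p under 0.05, 12 were lower and 5 higher (8.34% and 8.03% of all tested genes). The lists were drawn up with earlier results of these data known, and they share the contrast on which the 10 genes were chosen.

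Of the other late granule and late neutrophil genes, 2 of 18 tested were called lower and 0 higher by edgeR, 1 lower by limma-voom and 4 lower by DESeq2. Fitted values were negative for 14 and positive for 4, with a median log2 fold change of -0.86. More than 1.5-fold lower were 12 of the 18 and more than 1.5-fold higher 1 (3.71% and 5.12% of all tested genes), and 9 were separated on the lower side and 1 on the higher side (12.2% and 10.8%). Retnlg, a resistin-like protein secreted by granulocytes, fell from 34.9 ± 6.10 to 11.0 ± 2.60 CPM (log2 fold change -1.67, SE 0.20, adjusted p = 0.0154 by edgeR's quasi-likelihood test). Its counts were 295, 377 and 472 in OsxCre and 99, 66 and 112 in the other group. The call was lost without OsxCre;Stat3fl/fl replicate 1 (adjusted p = 0.0546) and without replicate 3 (adjusted p = 0.0770).

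Stfa3, a stefin that inhibits cysteine proteases, fell from 20.2 ± 6.03 to 8.75 ± 0.833 CPM (log2 fold change -1.21, SE 0.22, adjusted p = 0.0498 by the same edgeR test), and lost the call whenever any 1 library was left out. The stefin A genes are near-identical copies, so the split of reads between them is uncertain. Values without a call included Olfm4, a specific granule glycoprotein (log2 fold change -1.19, SE 0.26, adjusted p = 0.0825 by edgeR), and Cd177, a neutrophil surface protein (-1.14, adjusted p = 0.169 by edgeR). Olfm4, Cd177, Mmp9 and Chil3 were named after their values were seen. Mmp9, gelatinase B, was at 802 ± 81.7 against 767 ± 144 CPM (log2 fold change -0.06), and is also made in quantity by osteoclasts. Chil3, a chitinase-like protein with close paralogs, was at 0.953 ± 0.608 against 2.68 ± 1.83 CPM with overlapping groups (log2 fold change 1.46, SE 0.69, adjusted p = 0.343 by edgeR).

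**Figure D3:**
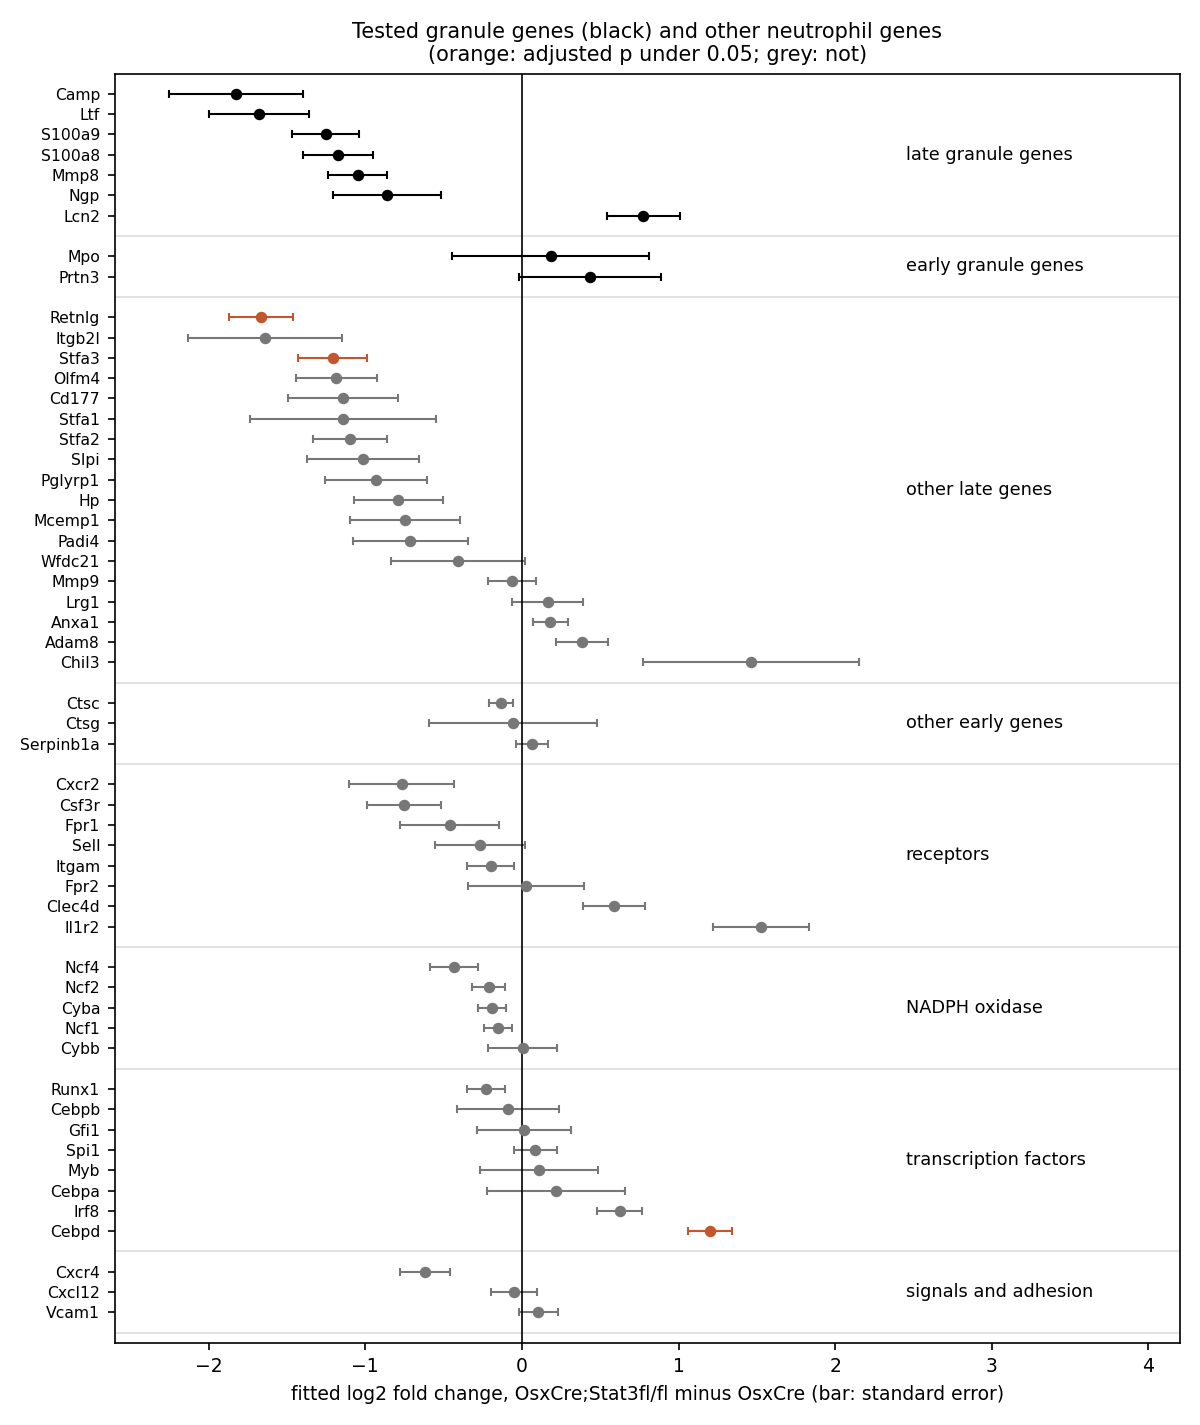
Fitted log2 fold change (horizontal axis, libraries labelled OsxCre;Stat3fl/fl minus OsxCre, bars are standard errors) of the tested granule genes and of the 45 other tested neutrophil genes, grouped by role. Black marks the granule genes, orange an adjusted p under 0.05 by edgeR and grey the rest. Most late genes lie left of 0, from Camp at -1.83 to Ngp at -0.86, with Lcn2 at 0.78 on the right. The early genes and the transcription factors lie nearer 0, with the exception of Cebpd at 1.20.

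Other early genes gave no call among 3 tested, with a median log2 fold change of -0.06. Ctsg, cathepsin G, had 21, 11 and 22 counts in OsxCre and 7, 7 and 26 in the libraries labelled OsxCre;Stat3fl/fl (log2 fold change -0.06, adjusted p = 0.976 by edgeR), again with replicate 3 of the second group highest. Ctsc, the peptidase that activates the granule serine proteases, differed by -0.13 on the log2 scale (adjusted p = 0.436 by edgeR). The groups overlapped for Ctsg, as they did for Mpo, Elane and Prtn3. For Ctsc they did not, with OsxCre above (12.2% of all tested genes), though the nearest libraries were at 67.52 and 67.51 CPM. None of the 3 passed at an unadjusted p under 0.05 by edgeR (0 of 3), and DESeq2 and limma-voom called 0.

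Among 13 receptor and surface genes, 8 were tested and 0 were called by edgeR or limma-voom, while DESeq2 called 1 higher, Il1r2. At an unadjusted p under 0.05 by edgeR, 1 was lower and 2 higher (8.34% and 8.03% of all tested genes). Csf3r, the receptor for granulocyte colony-stimulating factor, was at 17.4 ± 5.86 against 10.3 ± 0.899 CPM (log2 fold change -0.75, SE 0.24, adjusted p = 0.175 by edgeR), with groups that did not overlap. Ly6g, the defining surface marker of mouse neutrophils, had 9, 5 and 13 counts in OsxCre and 2, 1 and 2 in the other group, too few to be tested. Il1r2, a decoy receptor for interleukin 1, was at 1.27 ± 0.169 against 3.66 ± 1.05 CPM (log2 fold change 1.53, SE 0.31, adjusted p = 0.0652 by edgeR). Csf3r, Ly6g and Il1r2 do not all lie on the same side. The receptor gene Clec4d was at 3.88 ± 0.342 against 5.85 ± 0.715 CPM without overlap (log2 fold change 0.59, adjusted p = 0.199 by edgeR). Of the 8 tested genes, 3 were separated on the lower side and 2 on the higher side (12.2% and 10.8% of all tested genes). Itgam, the alpha chain of the Mac-1 integrin of myeloid cells, was at -0.20 on the log2 scale of differences (adjusted p = 0.562 by edgeR).

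The 5 subunits of the phagocyte NADPH oxidase, which monocytes, macrophages and osteoclasts also express, gave 0 calls by edgeR, DESeq2 or limma-voom. Their median log2 fold change was -0.19, and 1 was lower at an unadjusted p under 0.05 by edgeR (8.34% of all tested genes). Cyba, the membrane subunit, was at 58.4 ± 5.16 against 51.2 ± 2.09 CPM (log2 fold change -0.19, adjusted p = 0.338 by edgeR). Of the 5, 4 were separated on the lower side, against 12.2% of all tested genes.

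Of the transcription factors of granulocyte development, 8 of 9 were tested and 1 was called higher by edgeR (0.776% of all tested genes). DESeq2 and limma-voom also called 1 higher. At an unadjusted p under 0.05 by edgeR, 0 were lower and 2 higher (8.34% and 8.03% of all tested genes). The groups were separated on the lower side for 0 and on the higher side for 2 (12.2% and 10.8%). Cebpd, a C/EBP factor that is widely expressed in mesenchymal and myeloid cells, rose from 22.2 ± 2.90 to 51.0 ± 7.73 CPM in the libraries labelled OsxCre;Stat3fl/fl (log2 fold change 1.20, SE 0.14, adjusted p = 0.0142 by edgeR). Its counts were 263, 194 and 268 against 392, 490 and 396, and the call was lost without OsxCre;Stat3fl/fl replicate 3 (adjusted p = 0.0715). Spi1, which encodes PU.1, differed by 0.08 on the log2 scale (adjusted p = 0.819 by edgeR), and Gfi1 by 0.01 (adjusted p = 0.990). Cebpe, which is needed for specific granules, was too low to test, at 5, 7 and 16 against 3, 2 and 7 counts. Irf8, which favours monocytes over granulocytes, was at 9.90 ± 1.03 against 15.2 ± 1.22 CPM (log2 fold change 0.62, adjusted p = 0.0861 by edgeR).

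Among the signals that hold or release neutrophils in bone, Cxcl12, the retention chemokine made by marrow stroma and osteoblasts, differed by -0.05 on the log2 scale (adjusted p = 0.906 by edgeR). Its receptor Cxcr4 differed by -0.62 (adjusted p = 0.118) and the adhesion molecule Vcam1 by 0.10 (adjusted p = 0.745). Csf3, the granulocyte colony-stimulating factor itself, had 0 counts in each OsxCre library and 2, 2 and 0 in the other group. Of the 8 genes in this list 3 were high enough to be tested, with 0 called by edgeR, DESeq2 or limma-voom. At an unadjusted p under 0.05 by edgeR 1, Cxcr4, was lower (8.34% of all tested genes).

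Other cell types in the tissue were followed with 12 marker lists. The summed CPM of 6 pan-leukocyte genes was 280 to 313 in OsxCre and 263 to 287 in the libraries labelled OsxCre;Stat3fl/fl. Laptm5 and Tyrobp carried most of that sum, and Laptm5 was at a log2 fold change of -0.09. Of the 6 genes, 0 were called by edgeR, DESeq2 or limma-voom. At an unadjusted p under 0.05 by edgeR 1, Ptprc, was lower (8.34% of all tested genes). Ptprc, which encodes the leukocyte surface protein CD45, was at 18.4 ± 2.98 against 13.3 ± 2.54 CPM with groups that did not overlap (log2 fold change -0.47, adjusted p = 0.253 by edgeR). The macrophage list summed to 412 to 442 CPM in OsxCre against 501 to 536 CPM, without overlap. Of its 8 genes, DESeq2 called 2 higher, and edgeR and limma-voom 1 (0.776% of all tested genes by edgeR). That gene, C1qb, a complement subunit made by macrophages, rose from 103 ± 5.02 to 146 ± 6.65 CPM (log2 fold change 0.50, adjusted p = 0.0253 by edgeR), and lost the call whenever any 1 library was left out. Of the 8 macrophage genes, 4 were separated on the higher side (10.8% of all tested genes), 7 had positive fitted values, and Adgre1 was at a log2 fold change of -0.29. C1qa, C1qb and C1qc carried most of the macrophage sum. The part of these cells in the result for the granule genes was not tested.

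All 5 tested erythroid genes had negative fitted values and 0 were called. The sum of the list, carried mostly by Hba-a1, was 2378 to 3983 CPM in OsxCre against 1290.5 to 2217 CPM, without overlap. Hba-a1, an alpha globin, was at a log2 fold change of -0.96 (adjusted p = 0.139 by edgeR). OsxCre;Stat3fl/fl replicate 3 had the highest late and early granule gene sums of its group, though Lcn2 and Mmp8 were lowest there. It had the lowest erythroid sum of the 6 libraries. At an unadjusted p under 0.05 edgeR gave 2 lower (8.34% of all tested genes), and DESeq2 and limma-voom called 0. The part of red blood cells in the result for the late genes was not tested.

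Platelet markers were at 94.5 to 108 against 117 to 128 CPM. The mast cell, basophil and eosinophil list was at 77.9 to 108 against 114 to 128 CPM. For both lists the sums of the groups did not overlap, with the second group higher. Neither list gave a call by edgeR, and DESeq2 called 0 and 1 higher. At an unadjusted p under 0.05 by edgeR, 2 and 1 were higher (8.03% of all tested genes). Of the basophil and eosinophil genes, Mcpt8, Epx and Prg2 stayed under 1 CPM in every library. Prss34 was higher, at 3.02 ± 0.250 against 3.70 ± 0.509 CPM with overlapping groups (log2 fold change 0.29, adjusted p = 0.569 by edgeR). The B lineage list was at 10.6 to 18.6 against 12.5 to 16.0 CPM. Osteoclast markers were at 1512 to 1716 against 1347 to 1803 CPM. Progenitor markers were at 317 to 393 against 339 to 418 CPM. In the B lineage, osteoclast and progenitor lists the sums of the groups overlapped, with 0 calls by edgeR. At an unadjusted p under 0.05 by edgeR they gave 0, 1 higher and 0 (8.03% of all tested genes were higher). DESeq2 and limma-voom each called 1 osteoclast gene higher. T and natural killer cell markers stayed under 1 CPM in sum, with 0 of 5 genes tested, and the keratinocyte list was at 3.35 to 5.69 against 3.91 to 6.71 CPM.

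Osteoblast markers were at 12544 to 16817 against 10963 to 14009 CPM, and 7 of the 8 had negative fitted values. By edgeR 1 of 8 was called lower (0.481% of all tested genes), by limma-voom 1 and by DESeq2 2. At an unadjusted p under 0.05 by edgeR 2 were lower (8.34% of all tested genes), and 2 were separated on the lower side (12.2%). The gene called by edgeR, Ibsp (bone sialoprotein), fell by 0.66 on the log2 scale (adjusted p = 0.0213 by edgeR). The Ibsp call held in 2 of the 6 fits that left out a library, those without OsxCre replicate 3 and without OsxCre;Stat3fl/fl replicate 2, and the highest adjusted p was 0.105. Skeletal muscle markers were at 19854 to 21455 against 22778 to 33498 CPM, without overlap. By edgeR 1 of 6 was called higher (0.776% of all tested genes). That gene, Myh3 (embryonic myosin heavy chain), rose by 1.71 on the log2 scale (adjusted p = 0.0204 by edgeR). The Myh3 call held in 2 of those 6 fits (without OsxCre replicate 3 and without OsxCre;Stat3fl/fl replicate 2), with a highest adjusted p of 0.0967. DESeq2 called 4 muscle genes higher. At an unadjusted p under 0.05 edgeR gave 1 lower and 4 higher (8.34% and 8.03% of all tested genes). The lower one was Ryr1, the calcium release channel of muscle, at 333 ± 55.7 against 234 ± 51.4 CPM (log2 fold change -0.51, adjusted p = 0.212 by edgeR). Acta1, which carried the largest share of the sum, overlapped between the groups. The part of muscle in the difference of the granule genes was not tested.

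**Figure D4:**
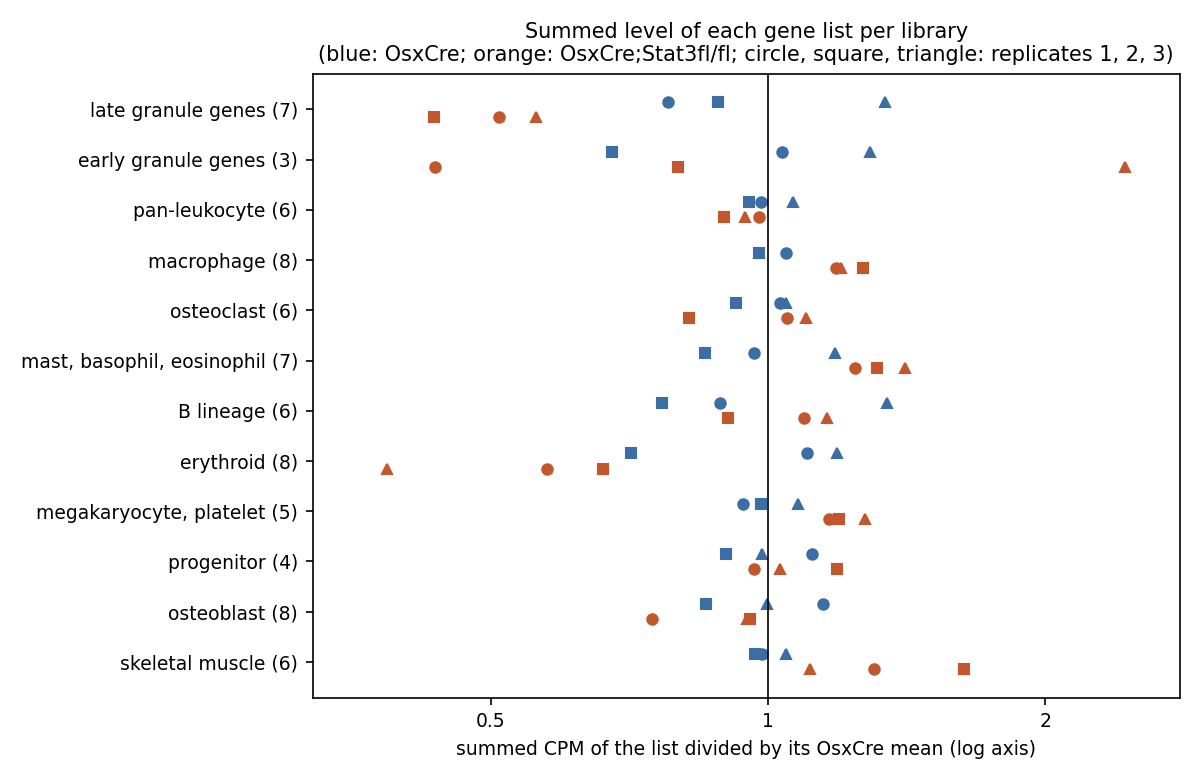
Summed TMM-scaled CPM of each gene list in each library, divided by the mean of the 3 OsxCre libraries (horizontal log axis), with the number of listed genes in parentheses. Blue points are OsxCre and orange points are the libraries labelled OsxCre;Stat3fl/fl (circle, square and triangle for replicates 1, 2 and 3). The late granule genes lay at 0.434 to 0.559 of the OsxCre mean in the second group, the early genes at 0.435 to 2.44, and the pan-leukocyte list at 0.895 to 0.977.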

How the data were processed

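The 6 libraries were whole parietal bone of newborn mice, 3 labelled OsxCre and 3 labelled OsxCre;Stat3fl/fl, made from polyA RNA with the TruSeq kit. The authors deposited raw read counts per gene for each library, with no normalization. The submitters' processing notes name HISAT2 and GRCm38, while the study's methods describe another aligner and an older build, so the aligner behind the counts is uncertain. The counting tool and its use of strand are not given in the sources used here.

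Counts were scaled by TMM and tested with edgeR 4.0.16 in R 4.3.3 (quasi-likelihood test, no replicate block, Benjamini-Hochberg adjustment). Of 44556 genes, 15600 passed filterByExpr (minimum count 10, minimum total 15). Alternatives used other scalings and filters, DESeq2 1.42.0, limma-voom (limma 3.58.1), a replicate block and leaving out each library.

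The 10 granule genes and the 20 gene lists, which include them, were chosen with earlier results of these data known. All 145 listed genes were found, 4 by an older symbol. Named genes were all 10 granule genes, every other neutrophil gene with an adjusted p under 0.05 (otherwise the 4 with the highest mean CPM in a list), 2 genes per cell-type list, the 5 genes most correlated with the late and with the early genes, Stat3, Xist and Ddx3y. A gene that this rule also named is not reported here. Olfm4, Cd177, Csf3r, Il1r2, Irf8, Mmp9, Chil3, Spi1, Gfi1, Myh3, Ptprc, Ryr1, Adgre1 and the low-count genes were added after their values were seen. Exon lengths came from GENCODE vM1, and coordinates and promoters from RefSeq.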

Additional observations from a re-analysis of the deposited data

How the results depend on the processing

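The log2 ratio of the summed CPM was -1.23 for 6 late genes (-1.39 to -0.95 when 1 library was left out), -0.997 for all 7 (-1.15 to -0.73), 0.78 for Lcn2 (0.59 to 0.96) and 0.29 for the early genes (-0.70 to 0.70, negative without OsxCre;Stat3fl/fl replicate 3). The fitted log2 fold changes of Mpo (-0.88 to 0.61) and Prtn3 (-0.32 to 0.71) were also negative without that library, and those of Ltf (-1.88 to -1.22) and Ngp (-1.12 to -0.42) were smallest in size without OsxCre replicate 3. Over all genes, 75 were called lower and 121 higher. Library totals gave 114 lower, no filter 178 lower and 250 higher, DESeq2 235 lower and 304 higher, and leaving out 1 library 5 to 36 lower and 7 to 67 higher. Of the other neutrophil genes, no filter and DESeq2 each called 4 lower and 2 higher, at least 1 CPM in 3 libraries and limma-voom each called 1 lower, and leaving out 1 library gave 0 to 1 lower and 0 to 1 higher. For the cell-type lists, 1 lower and 2 higher became 3 and 5 with no filter, 2 and 8 with DESeq2, and 0 to 2 and 0 to 1 when 1 library was left out. Same-numbered libraries deviated from their group means with correlations of -0.101, -0.528 and -0.0686. With 3 libraries a group these values cannot decide whether the replicate numbers pair littermates, and the labels do not say. The fit with a replicate block called 1 gene lower and 0 higher over all genes, 0 lower and 0 higher among the other neutrophil genes and 0 lower and 0 higher among the cell-type lists, and gave Mpo a log2 fold change of -0.06. Uncalled genes whose sign changed when 1 library was left out included Ctsg (-0.95 to 0.25), Fpr2 (-0.22 to 0.31), Cd34 (-0.027 to 0.17), Ctsk (-0.0093 to 0.17), Cxcl12 (-0.19 to 0.088), Itga2b (-0.0094 to 0.14), Serpinb1a (-0.015 to 0.16), Vcam1 (-0.017 to 0.21), Gfi1 (-0.18 to 0.19), Mmp9 (-0.17 to 0.088) and Spi1 (-0.028 to 0.18). For Fpr2, library totals gave -0.00018 and limma-voom -0.0088, and library totals gave -0.033 for Gfi1. With the longest transcript as the length, 6 of the 10 genes kept their place, and with library totals 1 of 5 genes of like pattern was shared for the late and 1 of 5 for the early genes. The causes were not tested. Depth limits the early genes most, with 34 to 196 counts a library over 3 genes.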

Other observations

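Tested genes outside the 10 granule genes, the other neutrophil genes included, were ranked by correlation with the mean log2 CPM of the late genes. Over the 6 libraries the closest were Rnf44 (Pearson's r 0.993), St8sia5 (0.992), Sec31b (0.991), Gigyf1 (0.990) and Rev1 (0.990). Their own differences were small beside those of the late genes, from 44.5 ± 1.54 against 42.0 ± 0.499 CPM for Rev1 (log2 fold change -0.08) to 10.4 ± 2.20 against 6.84 ± 0.564 CPM for Sec31b (log2 fold change -0.61, SD, n = 3 each). None of these 5 is a neutrophil gene by its known role. The genes closest to the early granule genes were LOC102633223 (0.992), Asb7 (0.981), Arl15 (0.980), Asb11 (0.978) and Plekhg6 (0.978). With 6 libraries and 15600 genes tested, values this high are a ranking and not a finding, and with library totals as the scaling 1 of 5 genes was shared for each class.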
